A study of Homo sapiens with 6 samples.

Results

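The genes described here are 5 transcription factors of noradrenergic cells, PHOX2A, HAND2, GATA2, GATA3 and ISL1, and 3 enzymes of catecholamine synthesis, TH, DBH and DDC. They were chosen by symbol, as the probe sets annotated to exactly 1 gene whose symbol is on this list. All 8 genes had such a probe set, among 14884 named genes in all, and ISL1 had a second one. The arrays came from BE(2)-C_tetoff_KDM4C, a derivative of the human neuroblastoma line BE(2)-C with an inducible KDM4C gene under tet-off control. KDM4C is an enzyme that removes methyl groups from lysine 9 on histone H3, and under tet-off control doxycycline holds the added gene silent. The group with doxycycline (construct off) and the group without it (construct on) each had 3 arrays, all after 6 days, and both groups carried the construct and grew in medium with dialyzed serum. The labels do not state the doxycycline concentration or whether the line is 1 clone. No array of cells without the construct was analysed here, so KDM4C induction and doxycycline withdrawal cannot be told apart. Nothing in the labels names separate cultures, so the p-values measure the spread between these samples.

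Noradrenergic neurons and chromaffin cells, and the sympathetic tumours called neuroblastomas, share a set of transcription factors that bind each other's regulatory regions. PHOX2A is a paired-type homeodomain protein, HAND2 a basic helix-loop-helix protein, GATA2 and GATA3 are zinc finger proteins and ISL1 is a LIM homeodomain protein. The enzymes act in sequence. TH (tyrosine hydroxylase) makes DOPA from tyrosine in the rate-limiting step, DDC (aromatic L-amino acid decarboxylase) turns DOPA into dopamine, and DBH (dopamine beta-hydroxylase) turns dopamine into noradrenaline inside the vesicle.

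The upstream sequences of 4 members are shown. DBH and DDC are printed as enzymes whose values differed from each other, and HAND2 and ISL1 as the factors whose windows held GATA motifs. RefSeq windows (GRCh38.p14) were matched by symbol for 7 of the 8 members, 14 windows in all, and TH was not among them. The 250 bases before each start were searched on both strands. Capitals mark TGACGTC (the core of a cyclic AMP response element, CRE), ATTA (the homeodomain core) and GATA motifs, which are AGATAA or TGATAA with a last letter of A or G. Matches of different motifs can share letters.
DBH, chr9:133636113-133636362, plus strand: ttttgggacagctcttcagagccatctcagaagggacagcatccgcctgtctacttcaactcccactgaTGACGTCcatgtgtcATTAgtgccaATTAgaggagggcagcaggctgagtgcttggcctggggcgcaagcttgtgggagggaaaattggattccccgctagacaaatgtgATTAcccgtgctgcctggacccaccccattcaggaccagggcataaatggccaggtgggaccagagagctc
DDC, downstream start, chr7:50561072-50561321, minus strand: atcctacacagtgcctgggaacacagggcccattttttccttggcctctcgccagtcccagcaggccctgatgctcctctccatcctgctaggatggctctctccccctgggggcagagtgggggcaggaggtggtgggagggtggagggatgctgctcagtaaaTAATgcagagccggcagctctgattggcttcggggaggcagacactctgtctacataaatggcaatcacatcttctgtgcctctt
DDC, upstream start, chr7:50565406-50565655, minus strand: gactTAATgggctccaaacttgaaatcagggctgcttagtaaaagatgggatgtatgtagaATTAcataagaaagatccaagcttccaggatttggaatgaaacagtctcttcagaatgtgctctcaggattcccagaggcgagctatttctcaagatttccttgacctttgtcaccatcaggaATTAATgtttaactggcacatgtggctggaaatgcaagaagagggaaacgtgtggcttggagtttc
HAND2, chr4:173530230-173530479, minus strand: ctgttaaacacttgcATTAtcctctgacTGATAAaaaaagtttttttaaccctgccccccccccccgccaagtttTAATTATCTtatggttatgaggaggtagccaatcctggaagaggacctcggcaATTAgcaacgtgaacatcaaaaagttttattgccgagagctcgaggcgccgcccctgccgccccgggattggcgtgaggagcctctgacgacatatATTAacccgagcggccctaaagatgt
ISL1, chr5:51383198-51383447, plus strand: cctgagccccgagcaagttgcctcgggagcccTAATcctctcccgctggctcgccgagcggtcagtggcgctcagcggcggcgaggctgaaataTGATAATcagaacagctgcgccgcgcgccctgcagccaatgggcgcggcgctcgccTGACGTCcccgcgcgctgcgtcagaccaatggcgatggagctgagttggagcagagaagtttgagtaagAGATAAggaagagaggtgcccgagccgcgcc

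Of 35114 windows of the same length, 3.12% held TGACGTC, 47.4% ATTA and 22.3% a GATA motif. Among the 14 member windows, 7 held ATTA, including 2 of the 6 windows of GATA3, which are not printed. TGACGTC stood in that of DBH, 181 bases before the start, and in that of ISL1, 100 bases before it. The DBH window also held ATTA 3 times, all between that match and the start. The upstream DDC window held ATTA 4 times and the downstream one once, and neither held TGACGTC or a GATA motif. GATA motifs stood in the windows of HAND2 and ISL1, 2 in each, and in no other member window. The windows of PHOX2A and GATA2 (1 and 2 windows) held none of these motifs. E-boxes (CANNTG), the letters read by helix-loop-helix proteins such as HAND2, stood in 7 of the 14 member windows and in 61.8% of all windows. These matches are letters in a window, and binding was not measured.

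Expression is given as log2 values of the deposited table, 1 per probe set and array. A gain of 1 is a doubling of the measured signal. The median over all 53617 probe sets was 3.94 to 3.96 on the 6 arrays. KDM4C itself was at 7.71, 7.77 and 7.80 with doxycycline and at 8.97, 9.08 and 9.02 without it, a log2 difference of 1.27 (SE 0.07, limma adjusted p = 0.0079), the direction the labels predict. This call held with 1 array fewer only without doxycycline replicate 3 or untreated replicate 1 (limma adjusted p = 0.0311 to 0.0696 over the 6 reduced fits). Values of this probe set do not separate transcripts of the construct from those of the native gene. Which of its probes read the construct is not given in the sources used here.

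All 8 members had mean levels above the median probe set of 3.94, with doxycycline means from 8.70 to 11.00. Probe sets differ in how brightly they read, so the levels are not compared between genes. Of 18 mesenchymal neuroblastoma markers 8 lay above that median, of 7 Schwann and neural crest markers 3, of 4 immune markers 1 (CD68) and of 4 endothelial markers 0. Of the Schwann and neural crest markers, SOX9 lay at 6.35 with and 6.62 without doxycycline, and FOXD3, below the median probe set, at 3.14 and 3.07. The groups of SOX9 (higher without doxycycline) and of FOXD3 (lower) did not overlap. SOX2 lay at 4.75 and 4.77, S100B at 5.84 and 5.66 and SOX10 at 3.96 and 3.81. The mean level of each of these lists overlapped between the groups. It ran from 5.04 to 5.10 with and from 5.05 to 5.09 without doxycycline for the mesenchymal list. For the Schwann list it ran from 4.34 to 4.44 and from 4.35 to 4.37, for the immune list from 4.02 to 4.16 and from 4.09 to 4.21, and for the endothelial list from 3.02 to 3.13 and from 3.10 to 3.20. Not one gene of these 4 lists passed limma's threshold. At an unadjusted limma p below 0.05, 3 were higher and 2 lower, against 6.70% and 5.73% of all probe sets. Single mesenchymal markers had separate groups, among them SNAI2 at 0.40, FOSL2 at 0.25, CD44 at -0.67 and VIM at -0.19 on the log2 scale. The mean of CD44 over the 6 arrays, 3.82, lay below the median probe set. Dimmer probe sets of VIM, at -0.38 and -0.29, had overlapping groups. The part of these markers in the members' values was not tested.

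TH and DBH were the members with the largest differences, each higher on all 3 arrays without doxycycline than on any array with it, by 1.26-fold and 1.22-fold. DDC, which acts between them in the pathway, lay within 0.05 of its doxycycline mean. Among the factors, GATA2, PHOX2A and ISL1 had positive differences of 0.13 to 0.20, and GATA3 and HAND2 lay within 0.05 of 0. No member passed the test over all probe sets (limma adjusted p = 0.190 to 0.911), where 0.341% of all probe sets did, so none of these differences is a call.

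At an unadjusted limma p below 0.05, 2 of the 8 members were higher, TH and DBH, and 0 lower, against 6.70% and 5.73% of all probe sets. Groups that did not overlap, with the untreated one higher, were found for 10.2% of probe sets and for 15.5% of the 9109 named genes above the median probe set, and for 3 of the 8 members, TH, DBH and GATA2. With 8 genes these are descriptions. Over the 8 members the median difference was 0.14, over all probe sets 0.0065.

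TH (probe set 16734397) was at 9.18, 9.21 and 9.28 with doxycycline and at 9.70, 9.49 and 9.50 without it. The groups did not overlap, and the gap of 0.20 between them was nearly as wide as the range of 0.22 among the untreated arrays. The log2 difference was 0.34 (SE 0.08, 95% confidence interval 0.14 to 0.54, limma adjusted p = 0.190). Of all probe sets, 7.48% had a larger difference in either direction. The interval is that of 1 gene, not widened for the number of probe sets tested.

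DBH (probe set 17090864), the enzyme of the last step to noradrenaline, was at 10.92, 10.97 and 11.09 with and at 11.39, 11.20 and 11.25 without doxycycline. Here too the groups did not overlap, with a gap of 0.11. The log2 difference was 0.28 (SE 0.08, 95% confidence interval 0.09 to 0.48, limma adjusted p = 0.244). Its upstream window, printed above, carries both the CRE core and the homeodomain letters, as does that of ISL1.

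DDC (probe set 17057736) was at 9.99, 10.00 and 10.00 with doxycycline and at 10.06, 9.91 and 9.87 without it. Its untreated arrays lay on both sides of the treated ones. The difference was -0.05 (95% confidence interval -0.22 to 0.12, limma adjusted p = 0.837). The untreated arrays spread over 0.19 and the treated ones over 0.01.

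**Figure D1:**
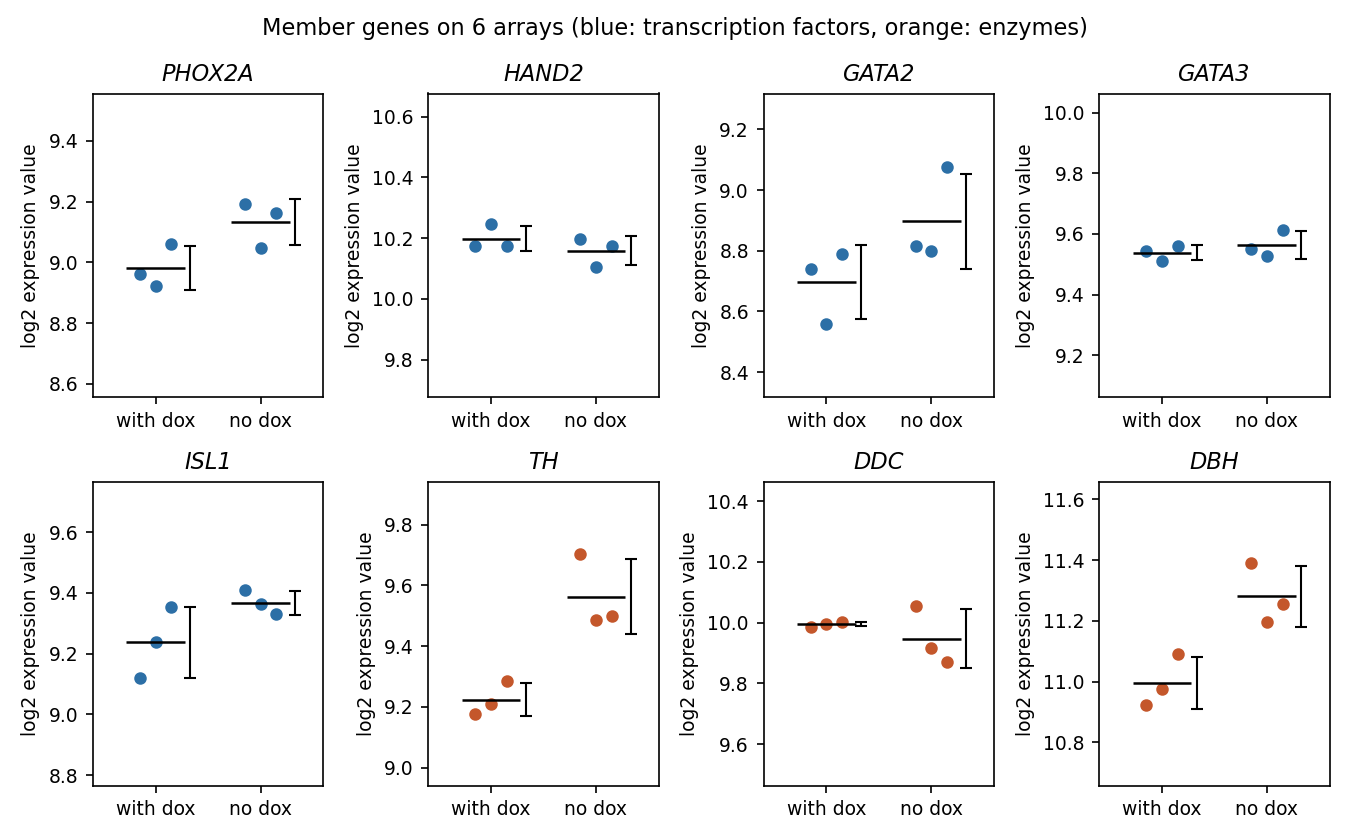
Log2 expression values of the 8 genes on each array, with and without doxycycline (dots, 3 arrays a group, in replicate order from left to right). Horizontal lines are group means, bars beside them the SD, and every panel spans 1 log2 unit. TH and DBH have separate groups (9.18 to 9.28 against 9.49 to 9.70, and 10.92 to 11.09 against 11.20 to 11.39), the GATA2 groups lie 0.0076 apart, and the others overlap.

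GATA2 (probe set 16958844), which acts in sympathetic precursors as it does in blood progenitors, was at 8.74, 8.56 and 8.79 with and at 8.82, 8.80 and 9.08 without doxycycline. The groups did not overlap, but the gap was 0.0076, and 1 untreated array stood well above the other two. The difference was 0.20 (SE 0.11, 95% confidence interval -0.05 to 0.45, limma adjusted p = 0.506). Its paralog GATA3 (probe set 16702351), a factor needed for sympathetic neurons to make noradrenaline, was at 9.55, 9.51 and 9.56 with and at 9.55, 9.53 and 9.61 without it. All 6 values lay close together. The GATA3 difference was 0.02 (95% confidence interval -0.12 to 0.17, limma adjusted p = 0.911).

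PHOX2A (probe set 16741682), a factor known to act on the DBH and TH genes, was at 8.96, 8.92 and 9.06 with doxycycline and at 9.19, 9.05 and 9.16 without it. The groups overlapped by 1 array each, the third treated array and the second untreated one. The difference was 0.15 (SE 0.07, 95% confidence interval -0.02 to 0.33, limma adjusted p = 0.470). HAND2 (probe set 16981542), which keeps noradrenergic genes on in sympathetic neurons, was at 10.17, 10.25 and 10.17 with and at 10.20, 10.11 and 10.17 without doxycycline. The first untreated array lay within the treated range, and the others lay below it, the third only just (10.173 against 10.174). The HAND2 difference was -0.04 (95% confidence interval -0.19 to 0.11, limma adjusted p = 0.847).

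ISL1, a factor of sympathetic and sensory neurons, was at 9.12, 9.24 and 9.35 with and at 9.41, 9.36 and 9.33 without doxycycline on the brighter of its probe sets (16984612). The highest treated array lay above the lowest untreated one. The difference was 0.13 (SE 0.08, 95% confidence interval -0.06 to 0.32, limma adjusted p = 0.564). The dimmer probe set had 5.40, 5.44 and 5.41 with and 5.59, 5.41 and 5.50 without it, a difference of 0.08 of the same sign (limma adjusted p = 0.691).

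**Figure D2:**
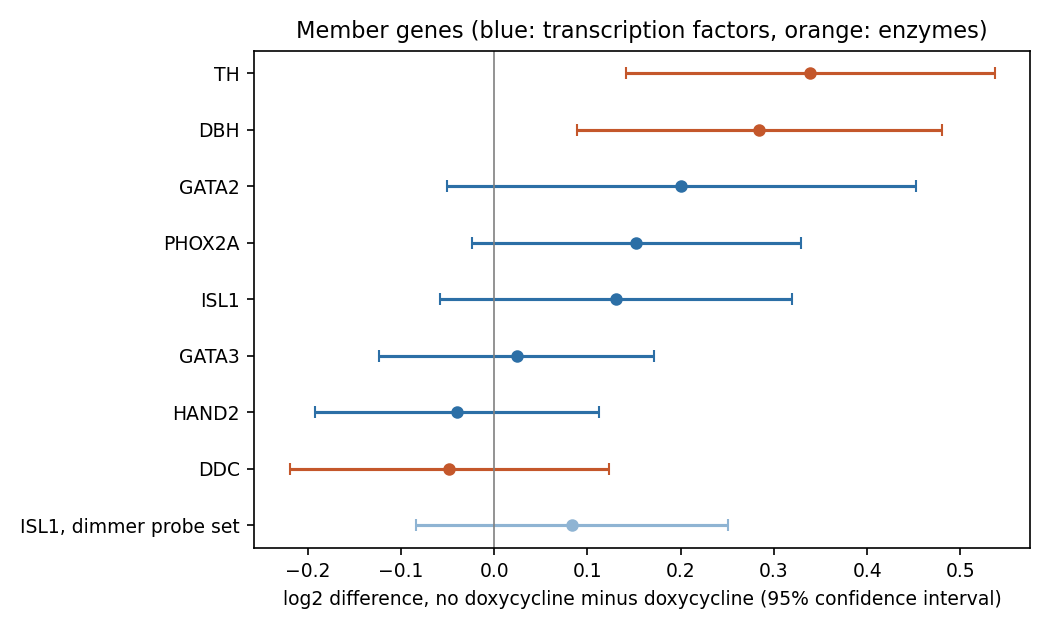
Log2 differences, no doxycycline minus doxycycline, of the 8 genes in order of size, with the dimmer ISL1 probe set below them. Points are limma estimates from 3 arrays a group and bars their 95% confidence intervals, not adjusted for the number of probe sets. The intervals of TH (0.14 to 0.54) and DBH (0.09 to 0.48) lie above 0 and the other 7 include it.

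The third array with doxycycline held the highest treated value of 7 of the 8 genes, where it did so for 33.3% of the named genes above the median probe set. The first array without doxycycline held the highest untreated value of 6 of the 8, against 29.2%. Without that untreated array the TH and DBH differences were 0.27 and 0.23, and without that treated array they were 0.37 and 0.33. Neither gene passed limma's threshold in those fits.

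As classes, the 3 enzymes had a median difference of 0.28 (mean 0.19) and the 5 factors one of 0.13 (mean 0.09). Set to 0 at the mean of the treated arrays, the mean of the enzymes was at 0.31, 0.13 and 0.14 on the untreated arrays and between -0.04 and 0.05 on the treated ones. The mean of the factors was at 0.10, 0.04 and 0.14 on the untreated arrays and between -0.04 and 0.06 on the treated ones. The enzyme means did not overlap between groups and the factor means did. Factors minus enzymes came to -0.10 ± 0.11 without doxycycline and lay between -0.02 and 0.02 with it (SD, n = 3). Of the untreated values of -0.21, -0.09 and 0.0046, only the last lies within the range of the treated ones. With 3 arrays a group this overlap does not settle whether the classes differed. No test was run over the members.

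The enzymes themselves ranged from -0.05 to 0.34. Measured within each array, TH minus DDC was at -0.77 ± 0.05 with and -0.38 ± 0.04 without doxycycline, a shift of 0.39 (SD, n = 3). DBH minus DDC went from 1.00 ± 0.08 to 1.33 ± 0.05, a shift of 0.33. Neither pair overlapped between groups. TH minus DBH was at -1.77 ± 0.03 and -1.72 ± 0.03, a shift of 0.05 with overlapping groups. These are shifts of a within-array difference, chosen after the single values were seen, and they were not tested. The levels themselves depend on the probe sets and have no order. With PHOX2A as the partner, the shift was 0.19 for TH and 0.13 for DBH, again with groups that did not overlap. GATA2 minus GATA3 went from -0.84 ± 0.10 to -0.67 ± 0.11, with the nearest arrays at -0.77 and -0.73.

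**Figure D3:**
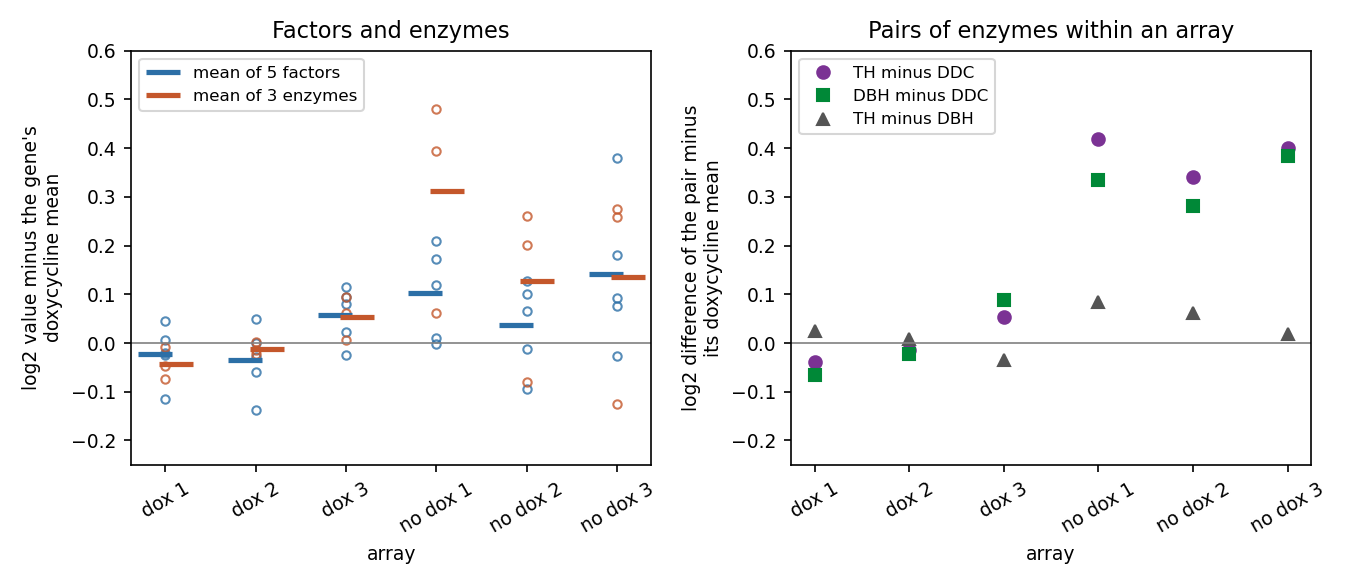
Left, each member on each array as its log2 value minus its own mean over the doxycycline arrays (open circles; blue, 5 factors; orange, 3 enzymes), with class means as bars. Right, the within-array log2 difference of pairs of enzymes, set to 0 at its doxycycline mean. TH minus DDC and DBH minus DDC are both higher on every untreated array than on any treated one (shifts of 0.39 and 0.33). TH minus DBH shifts by 0.05.

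For the 3 members whose groups did not overlap, the named genes with the most similar profile were sought by the root mean square (RMS) difference over the 6 arrays, each gene centred on its own mean. Of 9108 candidate genes above the median probe set, DBH had rank 2 from TH, at an RMS difference of 0.0381 on the log2 scale, between RTKN2 (0.0358) and MTSS2 (0.0444). For DBH the nearest were RTKN2 (0.0315), TXNL4B (0.0345) and PEG10 (0.0370), and TH had rank 4. PHOX2A had rank 136 from DBH and rank 337 from TH, and ISL1 had ranks 296 and 562. In the same order, GATA2 had ranks 1646 and 1920, GATA3 2176 and 2597, DDC 3538 and 3558, and HAND2 3643 and 3861. For GATA2 the nearest were RNF150 (0.0305), FOXP4 (0.0365) and CEP72 (0.0387), and GATA3 had rank 997. None of these neighbours passed limma's threshold (adjusted p = 0.173 to 0.488). The RMS difference includes the group difference by which these 3 members were picked. The closeness of TH and DBH therefore in part restates that both were higher without doxycycline.

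Other genes of the pathway were taken from lists by role. Beside each list count stand the shares of all probe sets. At an unadjusted limma p below 0.05 these were 6.70% higher and 5.73% lower, and 0.341% passed limma's threshold. TH needs tetrahydrobiopterin as a cofactor. Of 6 measured genes of its synthesis and recycling, 0 passed limma's threshold and 1 was higher at an unadjusted p below 0.05. That gene was PCBD2, of the pterin dehydratase family, at 5.99 ± 0.07 without and 5.59 ± 0.09 with doxycycline (SD, n = 3; log2 difference 0.40, SE 0.08, limma adjusted p = 0.110). GCH1, the first and rate-limiting enzyme of cofactor synthesis, was at 8.94 ± 0.04 with and 9.07 ± 0.15 without it, 0.14 apart (95% confidence interval -0.08 to 0.35). The GCH1 groups did not overlap, with a gap of 0.0131. PTS, QDPR, PCBD1 and GCHFR had differences from -0.12 to -0.0022.

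Of 4 vesicle genes measured, 0 passed limma's threshold and 2 were lower at an unadjusted p below 0.05. CHGA and CHGB, granins that pack catecholamine vesicles, had differences of -0.40 and -0.34 (limma adjusted p = 0.0856 and 0.0853), with groups that did not overlap. SCG2, another granin, was at 10.40 ± 0.04 with and 10.39 ± 0.04 without doxycycline. CYB561, which supplies DBH with reducing equivalents across the vesicle membrane, had a difference of -0.01 (95% confidence interval -0.27 to 0.25).

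Among 4 genes of catecholamine breakdown and of adrenaline synthesis, 0 passed limma's threshold and 1 was lower at an unadjusted p below 0.05. MAOA, the monoamine oxidase that degrades noradrenaline, was at 6.65, 6.88 and 6.59 with and at 6.33, 6.03 and 6.12 without doxycycline. Its groups did not overlap, and the difference was -0.55 (SE 0.11, 95% confidence interval -0.82 to -0.28, limma adjusted p = 0.133). MAOB and PNMT, which makes adrenaline from noradrenaline, lay below the median probe set in both groups, at 3.02 and 2.95 for MAOB and 3.64 and 3.61 for PNMT. Of 8 adrenergic receptor genes measured, 1 lay above that median (ADRA2C) and 0 passed limma's threshold at either the adjusted or the unadjusted level. Of 4 cholinergic markers 0 passed limma's threshold and 1, CHAT, was higher at an unadjusted p below 0.05. VIP was at 10.36 in both groups, and CHAT, the enzyme of acetylcholine synthesis, at 3.63 ± 0.05 with and 3.99 ± 0.20 without doxycycline (limma adjusted p = 0.263). LHX8 and GBX1 had differences of -0.10 and -0.09 with overlapping groups. The means of CHAT (3.81), LHX8 and GBX1 over the 6 arrays lay below the median probe set.

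**Figure D4:**
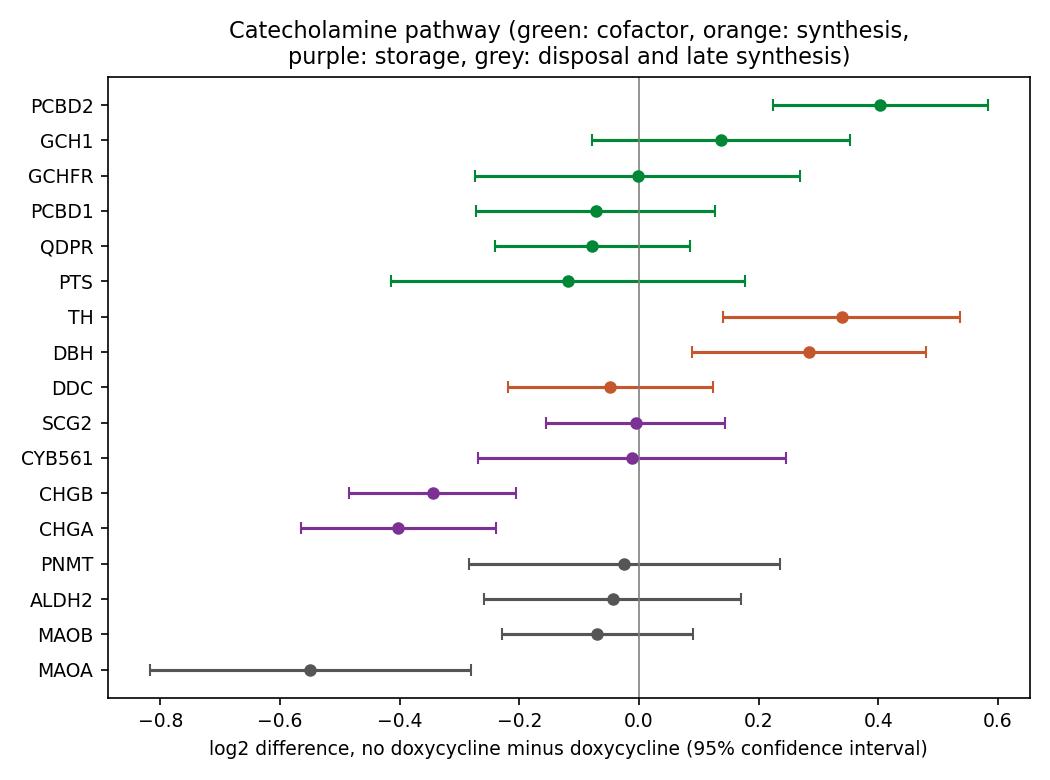
Log2 differences, no doxycycline minus doxycycline, with 95% confidence intervals (limma, 3 arrays a group), for genes of cofactor synthesis, catecholamine synthesis, storage, and disposal with late synthesis. The intervals of TH, DBH and PCBD2 lie to the right of 0 (differences of 0.34, 0.28 and 0.40). Those of CHGA, CHGB and MAOA lie to the left (-0.40, -0.34 and -0.55). No gene shown passed the adjusted threshold.

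Of 23 other factors of noradrenergic identity with a named probe set, 0 passed limma's threshold, and the median difference was 0.09. At an unadjusted limma p below 0.05, 6 were higher and 2 lower, against 6.70% and 5.73% of all probe sets. HAND1, the paralog of HAND2, was at 10.48, 10.46 and 10.82 with and at 10.84, 10.91 and 11.00 without doxycycline. Those groups did not overlap by a narrow margin (log2 difference 0.33, SE 0.11, limma adjusted p = 0.308). SOX4 and DACH1 had differences of 0.35 and 0.38, and TLX2, a homeobox gene of autonomic neurons, one of -0.42 (limma adjusted p = 0.102, 0.127 and 0.0975). MEIS1 was at 0.32, SIX3 at 0.18, TFAP2B at 0.15 and SATB1 at -0.19. Of 19 cofactors and relatives of the members, 0 passed and 2 were higher at an unadjusted p below 0.05, GATA4 (0.23) and LMO4 (0.34). LDB1, the LIM-binding partner of ISL1, was at 0.07, and the E proteins TCF3, TCF4 and TCF12, with which HAND2 pairs, at 0.10, 0.03 and 0.03. The lower cofactor genes with the smallest p were LDB2, at -0.14 with groups that did not overlap, and SSBP4, at -0.11 (limma adjusted p = 0.492 and 0.633).

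**Figure D5:**
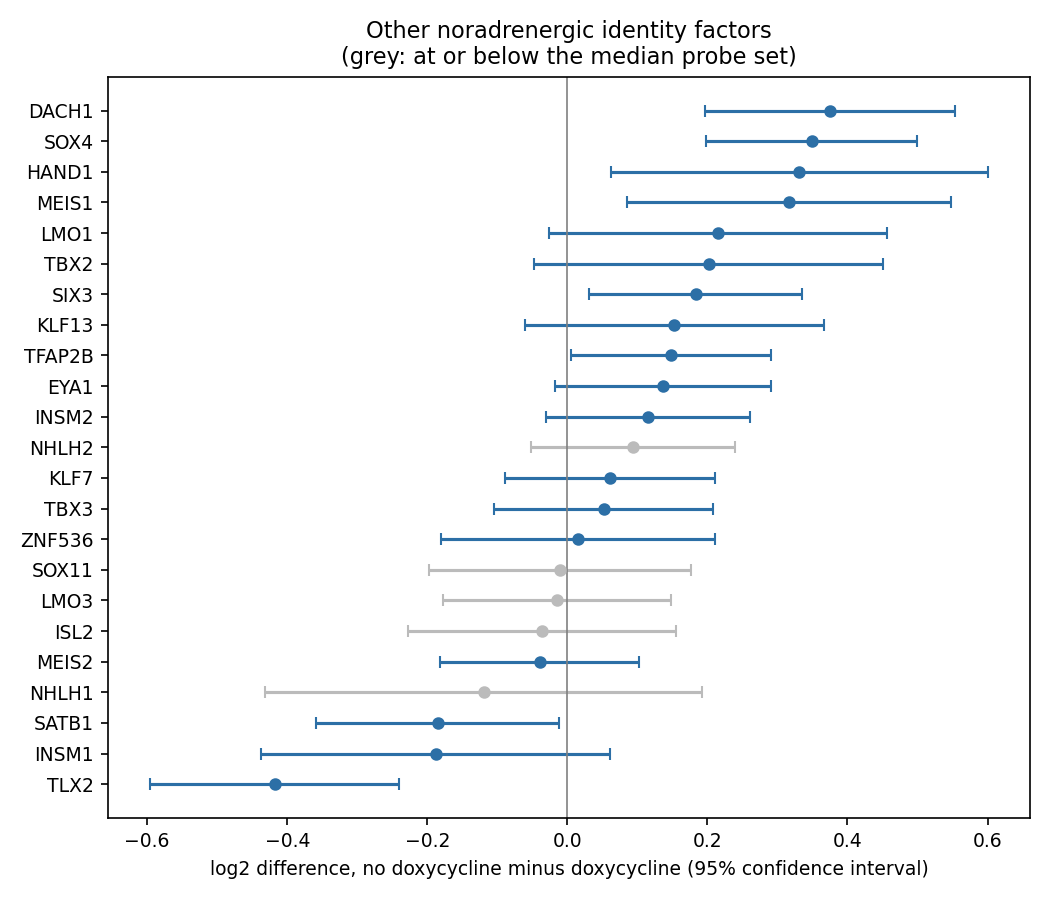
Log2 differences, no doxycycline minus doxycycline, with 95% confidence intervals (limma, 3 arrays a group), for 23 other factors of noradrenergic identity. Grey points are genes at or below the median probe set. DACH1 (0.38) and TLX2 (-0.42) are the ends of the range, and no gene shown passed the adjusted threshold.

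Factors known to act at the TH promoter were measured on the same arrays. Of 13 with a named probe set, 3 passed limma's threshold as higher, JUN, FOS and EGR1, where 0.341% of all probe sets passed in either direction. At an unadjusted limma p below 0.05, 8 were higher and 0 lower, against 6.70% and 5.73% of all probe sets. The differences were 1.81 (SE 0.15) for JUN, 1.02 (SE 0.09) for EGR1 and 0.84 (SE 0.10) for FOS (limma adjusted p = 0.0140, 0.0160 and 0.0381). On their dimmer probe sets, EGR1 was at 0.43 and FOS at -0.11 (limma adjusted p = 0.377 and 0.661). That of FOS lay below the median probe set. With 1 array left out, JUN passed only without untreated replicate 1 (limma adjusted p = 0.0377, up to 0.0995 otherwise), and EGR1 and FOS passed in none of the 6 fits (limma adjusted p = 0.0631 to 0.102 and 0.112 to 0.155). CREB1, the factor of the CRE, was at 8.24 ± 0.06 with and 8.26 ± 0.03 without doxycycline (SD, n = 3). SP1 was at 0.21 and EPAS1 at 0.25, and the 1 gene with a negative difference was ARNT, at -0.02. The part of these factors in the TH values was not tested. In bulk RNA, fewer cells of a type and less RNA per cell cannot be told apart, for these genes or the members.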

How the data were processed

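Total RNA from 6 samples was labelled with biotin for Affymetrix whole-transcript arrays, per the labels' protocols. The deposited table holds log2 values, 1 per probe set and array, made by the authors with Partek (no version), per the submitters' processing notes. How background was corrected, arrays normalized and probes summarized, and on which build, is not given in the sources used here. That the scale is log2 was inferred from the range of the values. Summarized array values can understate large changes. The number of arrays, not a depth, limits the precision.

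All 53617 probe sets were fitted with limma 3.58.1 in R 4.3.3 (lmFit, eBayes), no doxycycline minus doxycycline, without covariates or filter, and p-values were adjusted by Benjamini-Hochberg, with a threshold of 0.05. Names came from GEO's platform annotation. The probe set with the highest mean stood for a gene. An exact permutation test of 3 against 3 cannot go below 0.1 and was not used. Members and lists were chosen with earlier results of these data known. All members were named, and in other lists at least the 2 genes with the smallest p in each direction where the list is described by gene. The fit was checked on simulated data. Alternatives were other moderation, scaling, filtering, a replicate block, mean probe sets and leaving out each array.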

Additional observations from a re-analysis of the deposited data

How the results depend on the processing

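No member passed limma's threshold under any of the 12 alternatives. TH stayed between 0.27 and 0.38 (limma adjusted p = 0.106 to 0.377) and DBH between 0.23 and 0.33 (limma adjusted p = 0.132 to 0.452). PHOX2A, GATA2, ISL1, HAND2 and DDC kept their sign, but small differences moved by over 1.5 times with 1 array left out. GATA2 was at 0.11 without untreated replicate 3 and 0.13 without treated replicate 2, and ISL1 at 0.0725 without treated replicate 1. DDC was at -0.10 without untreated replicate 1 and -0.0096 without untreated replicate 3. HAND2 was at -0.01 without untreated replicate 2 and -0.02 without treated replicate 2. GATA3 ran from -0.0012 (without untreated replicate 3) to 0.043 with 1 array left out, and did not change sign otherwise. With 1 array left out, the median of the factors ran from 0.0725 to 0.188, that of the enzymes from 0.23 to 0.33, and factors minus enzymes from -0.15 to -0.04.

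The count of probe sets called was 183 in the fit reported, 385 with trend and robust moderation, 311 without dim probe sets and 0 to 15 with 1 array left out (5542 to 6191 at an unadjusted limma p below 0.05). With the replicate number as a block 0 were called by limma (6251 at an unadjusted p below 0.05), and TH and DBH had adjusted p of 0.335 and 0.376. Deviations of same-numbered arrays correlated at -0.01, -0.01 and 0.04 over all probe sets, and not every array correlated best with its own number. No effect of a shared number was seen, which cannot exclude that same-numbered samples were paired. Each member rests on 3 arrays a group, and without detection calls no background level could be set for dim probe sets.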
